A study of Oryza sativa with 4 samples.

Results

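The circadian clock genes of rice were examined in the young panicle. The set is defined by gene names, picked with earlier results of these data known: GI (LOC4325329), PRR1 (LOC4330000), PRR95 (LOC4347674), LHY, also called CCA1 (LOC4344703), and genes annotated as PRR37, PRR59, PRR73 or ELF3. Of these 8 names, 6 led to a probe set in the array annotation: GI, PRR1, PRR95, LHY, PRR37 and PRR73, with 9 probe sets among the 57381 of the table and 6 of its 17905 annotated genes. PRR59 was not matched in the reference gene table, and ELF3 was matched (LOC4340087, chromosome 6) but no probe set was paired with it, so neither was analysed here. The 6 genes lie on 6 different chromosomes of the reference annotation, GI on 1, PRR1 on 2, PRR73 on 3, PRR37 on 7, LHY on 8 and PRR95 on 9.

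The plant clock is a loop of transcription factors that repress one another at different times of day. LHY encodes a MYB transcription factor whose transcript peaks around dawn and which, in Arabidopsis, represses evening genes. The PRR genes encode pseudo-response regulators, repressors that in Arabidopsis act back on LHY and CCA1. Their transcripts peak one after another through the day in rice, PRR73 and PRR37 early, PRR95 later and PRR1, the counterpart of Arabidopsis TOC1, towards evening. GI encodes a large plant-specific protein that peaks late in the day and passes the clock signal to flowering genes, in rice through Hd1. ELF3 belongs in Arabidopsis to a complex that represses clock genes at night. LHY, PRR37 and PRR73 are called morning genes below, and PRR95, GI and PRR1 afternoon to evening genes.

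The study compared 2 rice cultivars, Pusa 1266 and Pusa Basmati 1, both labelled as Indica, with 2 biological replicates each and 1 Affymetrix array per replicate. All 4 samples were total RNA from panicle primordia at the stage numbered 0, and no treatment is given for either cultivar. The characteristic of Pusa 1266 is a high grain number per panicle and that of Pusa Basmati 1 a low one, whereas the sample titles call both low, so the groups are named by cultivar alone. No source used here gives the hour of harvest or how many plants made up a sample.

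The arrays were not on a common level as deposited: the 2 Pusa 1266 arrays had a median signal of 6.8 and 7.8, the 2 Pusa Basmati 1 arrays one of 11.5 and 11.3. Differences are therefore given on log2 of the signal plus 16 after quantile normalization, as Pusa 1266 minus Pusa Basmati 1, with their SE, and set beside the deposited signals. Across probe sets, which are not independent, normalized replicates correlated with r = 0.991 and 0.994 and arrays of different cultivars with at most 0.904. The 3' to 5' ratio of control transcripts, a sign of RNA integrity, was higher in both Pusa 1266 arrays for 5 of 5 controls, by 1.24 (cyclophilin) to 3.25 times (second actin). The labelled tissue was checked with 8 inflorescence and meristem genes, of which 7 were tested. Of these, 5 were called higher in Pusa 1266 and 1 lower, where 35.5% and 26.7% of all tested genes were. Their differences ran from −0.83 (MADS34) to 2.62 (RFL), with a median of 0.58 that was −0.14 with the deposited scaling. OSH1, a KNOX gene of the shoot meristem, had signals of 2211 and 2279 in Pusa 1266 against 2032 and 2094 in Pusa Basmati 1, while FZP, a gene of the later spikelet meristem, had signals of at most 5.5. Because these are pieces of tissue, fewer cells of a type and less RNA per cell cannot be told apart in any value below.

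LHY was lower in Pusa 1266 than in Pusa Basmati 1, and the afternoon to evening genes PRR1, PRR95 and GI were higher after quantile normalization, though GI and PRR95 changed sign with one other scaling, given below. LHY fell 1.52-fold, PRR1 rose 2.40-fold, PRR95 1.91-fold and GI 1.90-fold (n = 2 per cultivar). PRR37 and PRR73 did not pass the threshold at the probe set that represents each gene, and the other probe set of each did, in opposite directions. Of the 6 genes 3 were called higher and 1 lower at an adjusted p of 0.05 (limma, Benjamini-Hochberg over 15183 genes), where 35.5% of all tested genes were called higher and 26.7% lower. At 2-fold or more 1 of the 6 (PRR1) was higher and none lower, against 5.57% and 7.24% of all genes. Of the 8 probe sets tested 4 were called higher and 2 lower, against 28.2% and 25.2% of all tested probe sets. The median difference of the 6 genes was 0.45, and that of all tested genes 0.07. With the deposited scaling these medians were −0.33 and −0.62.

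LHY was the one morning gene called at its representing probe set. Its deposited signals were 788.4 and 891.4 in Pusa 1266 against 2008.9 and 2229.7 in Pusa Basmati 1. Both Pusa 1266 arrays lay below both Pusa Basmati 1 arrays, and the mean signal was 2.52 times higher in Pusa Basmati 1. After normalization the log2 values were 10.11 and 10.12 against 10.74 and 10.69, a difference of −0.60 ± 0.05 (SE, adjusted p = 2.92e-05). The cultivars did not overlap on either scale, where 78% of all tested genes were lower without overlap as deposited and 35.5% after normalization. A second probe set of LHY gave signals of 0.3, 7.2, 1.0 and 2.3, below the filter on dim probe sets, and was not tested, so the LHY result rests on 1 probe set.

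PRR37, which is also the heading date locus DTH7 (Hd2) and delays flowering in long days, had 2 probe sets that differed. The brighter, here called S1, had signals of 385.0 and 521.4 in Pusa 1266 against 755.1 and 847.1 in Pusa Basmati 1. The groups did not overlap as deposited, but the normalized values of 9.13 and 9.36 lay on both sides of the 2 Pusa Basmati 1 values, both 9.28. The difference was −0.033 ± 0.08 (adjusted p = 0.753), with a 95% interval from −0.23 to 0.16. The other probe set, S2, had signals of 397.5 and 426.4 against 495.8 and 537.5. Its normalized values of 9.18 and 9.09 were above those of 8.68 and 8.62 in Pusa Basmati 1, and it was called higher at 0.49 ± 0.07 (adjusted p over probe sets 0.000555). The signals as deposited were thus lower in Pusa 1266 for both probe sets, and S2 turned from lower to higher through normalization.

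PRR73, the close relative of PRR37, also had 2 probe sets. The brighter, S2, had signals of 678.8 and 709.6 in Pusa 1266 against 1174.3 and 1390.7 in Pusa Basmati 1. Its normalized difference was −0.12 ± 0.06 (adjusted p = 0.137), with a 95% interval from −0.26 to 0.03. The dimmer, S1, had signals of 70.0 and 68.4 against 230.7 and 248.2, which is 3.46 times higher in Pusa Basmati 1. It was called lower at −0.77 ± 0.11 (adjusted p over probe sets 0.000608). Both probe sets were lower in Pusa 1266 without overlap on both scales, by unequal amounts. Of all tested genes 78% were lower without overlap as deposited and 35.5% after normalization.

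The gap between the differences of the 2 probe sets was 0.52 for PRR37 and 0.66 for PRR73 on the log2 scale. Over the 1939 genes with 2 tested probe sets the median gap was 0.49, and 52.0% and 62.1% of them had a smaller gap than PRR37 and PRR73. The suffix of both PRR73 probe sets is the one Affymetrix uses for probes that match several transcripts of a gene, and no source used here gives the part of the transcript that each measures. The 3' to 5' ratio of GAPDH was 2.42 times higher in Pusa 1266, and its part in these gaps was not tested.

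**Figure D1:**
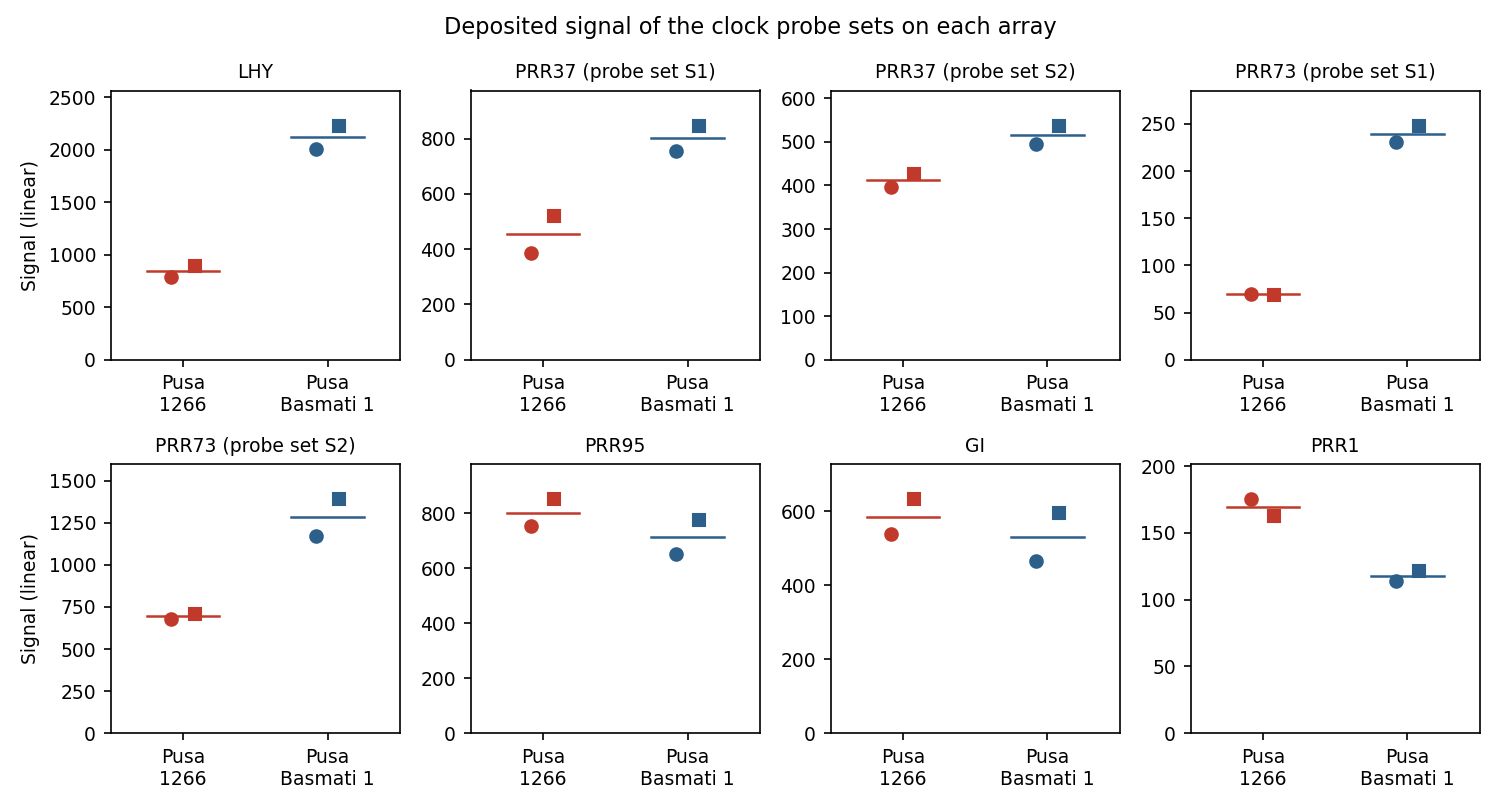
Deposited linear signal of the 8 tested clock probe sets (y axis, each panel on its own scale from 0) on the arrays of Pusa 1266 (red) and Pusa Basmati 1 (blue). Circles are replicate 1, squares replicate 2 and lines the mean of both. All 5 probe sets of the morning genes were lower on both Pusa 1266 arrays, PRR1 was higher on both, and PRR95 and GI overlapped between the cultivars. On this scale 78% of all tested genes were lower in Pusa 1266 without overlap and 7.65% higher.

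The 3 afternoon to evening genes were all called higher after quantile normalization. PRR1 had signals of 175.3 and 162.9 in Pusa 1266 against 113.7 and 121.6 in Pusa Basmati 1. It was the only one of the 6 genes whose deposited signals were higher in Pusa 1266 without overlap, by 1.44 times, although the array medians ran the other way. After normalization the values were 8.10 and 7.80 against 6.72 and 6.65, a difference of 1.26 ± 0.12 (adjusted p = 5.07e-05).

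PRR95 had signals of 751.9 and 850.5 in Pusa 1266 against 651.7 and 773.8 in Pusa Basmati 1, which overlapped. Its normalized values of 10.04 and 10.05 were above those of 9.07 and 9.15, a difference of 0.94 ± 0.06 (adjusted p = 6.62e-06). GI had signals of 537.6 and 632.7 against 465.3 and 595.5, which also overlapped. Its normalized values were 9.58 and 9.63 against 8.59 and 8.78, and the difference was 0.92 ± 0.08 (adjusted p = 3.06e-05). The 95% intervals of PRR95 (0.80 to 1.07) and GI (0.74 to 1.11) largely coincide, and that of PRR1 runs from 0.99 to 1.54.

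**Figure D2:**
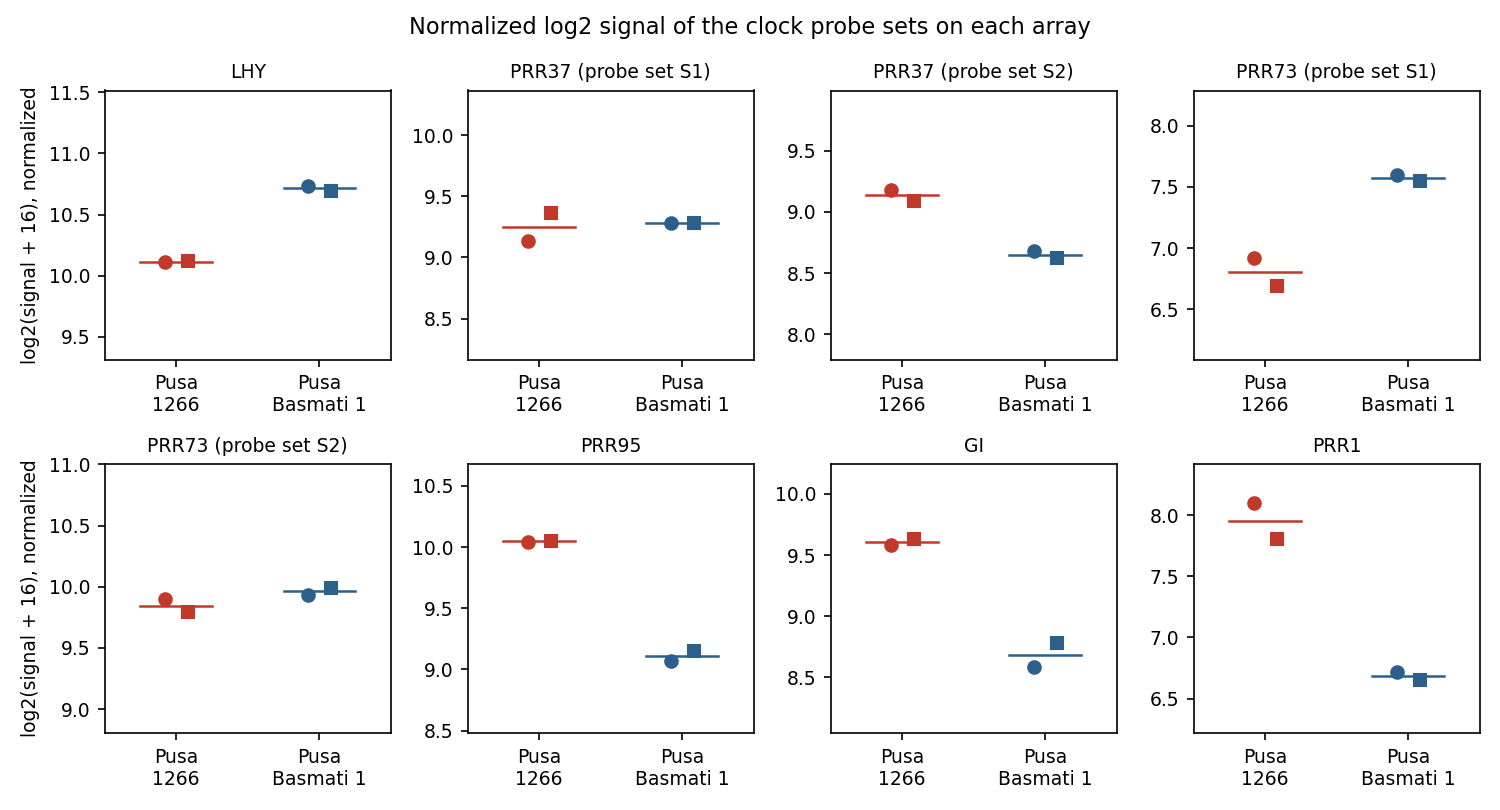
Quantile-normalized log2(signal + 16) of the same 8 probe sets (y axis, every panel spanning an equal range), with Pusa 1266 in red, Pusa Basmati 1 in blue, circles for replicate 1, squares for replicate 2 and lines for the mean. PRR95, GI, PRR1 and probe set S2 of PRR37 were higher on both Pusa 1266 arrays, LHY and both PRR73 probe sets were lower, and probe set S1 of PRR37 overlapped. After this normalization 46.4% of all tested genes were higher in Pusa 1266 without overlap and 35.5% lower. With the deposited scaling PRR37 S2 was lower, and with hybridization control scaling PRR95 and GI were.

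The directions of single genes depended on how the arrays were brought together. As deposited, 3 of the 6 genes (LHY, PRR37 and PRR73) were lower in Pusa 1266 without overlap, where 78% of all tested genes were, and 1 (PRR1) was higher, where 7.65% were. After normalization 3 were higher without overlap, against 46.4% of all tested genes, and 2 lower, against 35.5%. Tested with the deposited scaling, LHY, PRR37 and PRR73 were called lower, at −1.32, −0.81 and −0.87, against 67% of all genes. PRR1 was called higher at 0.47, against 4.68% of all genes. GI and PRR95 stood at 0.14 and 0.17 with that scaling and were not called. The median of all tested genes was −0.62 with the deposited scaling. Relative to it PRR1, PRR95 and GI stood 1.09, 0.78 and 0.76 above and LHY 0.70 below, close to the 1.19, 0.86, 0.85 and 0.67 found relative to the median after quantile normalization.

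A further scaling, to the bacterial and phage hybridization controls bioB, bioC, bioD and cre, was added after the data were seen. The geometric mean of these controls was 502.5 and 605.9 on the Pusa 1266 arrays and 383.0 and 495.0 on the Pusa Basmati 1 arrays. With it the median of all genes was −0.92, LHY stood at −1.66, PRR1 at 0.16, PRR95 at −0.17 and GI at −0.19. None of the afternoon to evening genes was then called, and GI and PRR95 had turned negative. The fall of LHY held its sign and its call in 16 of 16 alternatives, with values from −1.66 to −0.52. The sign of GI and PRR95 thus depended on the scaling.

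**Figure D3:**
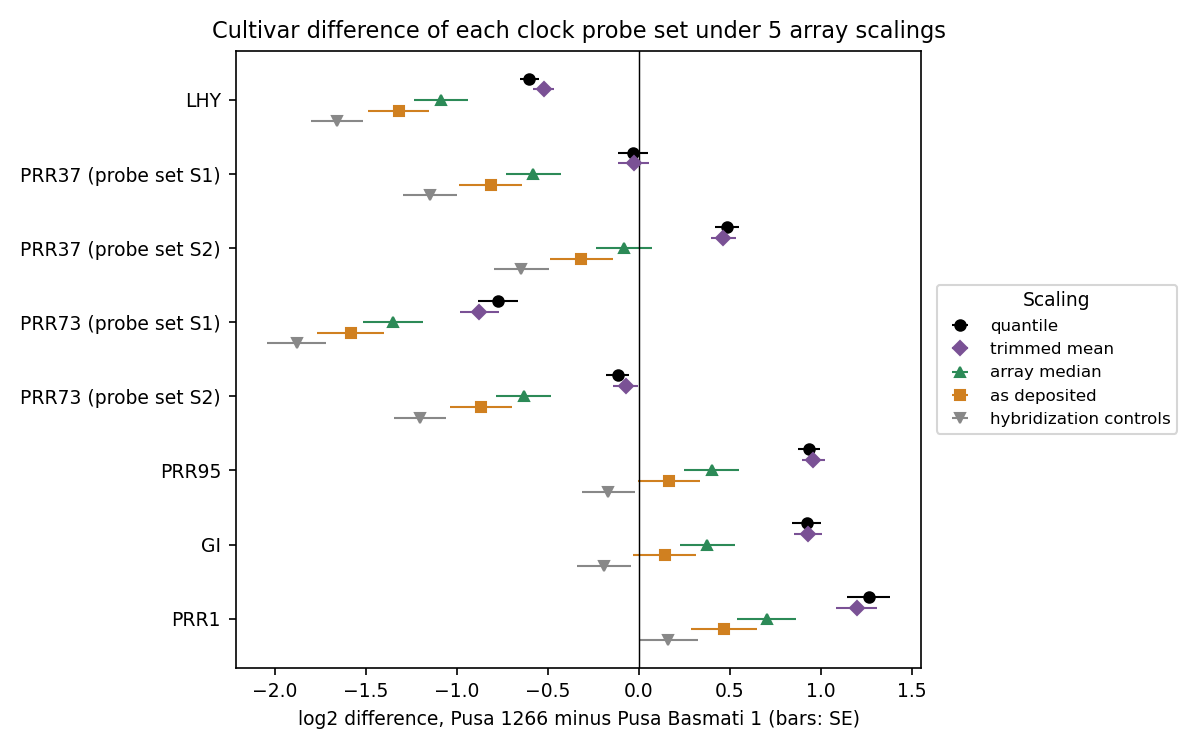
Log2 difference, Pusa 1266 minus Pusa Basmati 1 (x axis, bars are SE), of the 8 tested clock probe sets (y axis) under 5 scalings between arrays, told apart by symbol and colour. Every probe set moved left together from quantile to hybridization control scaling. LHY, PRR37 S1 and both PRR73 probe sets stayed below 0 and PRR1 above 0 in all 5, while PRR95, GI and PRR37 S2 changed sign.

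The difference of each gene was also ranked among those of all tested genes. The difference of PRR1 was above that of 96.9% of the tested genes after quantile normalization and 96.1% with the deposited scaling. PRR95 stood at 93.5% and 91.8%, and GI at 93.3% and 91.4%. LHY stood at 14.4% and 14.0%, near the lower end. PRR73 at 36.0% and 33.3% and PRR37 at 41.5% and 36.6% lay in the lower middle. Over all settings run, PRR1 kept between 95.5% and 98.1%, GI between 89.3% and 95.7%, PRR95 between 89.9% and 96.1%, and LHY between 10.2% and 17.5%. PRR73 ranged from 19.4% to 40.1% and PRR37 from 34.7% to 63.5%, both moved most by taking the mean of their probe sets.

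**Figure D4:**
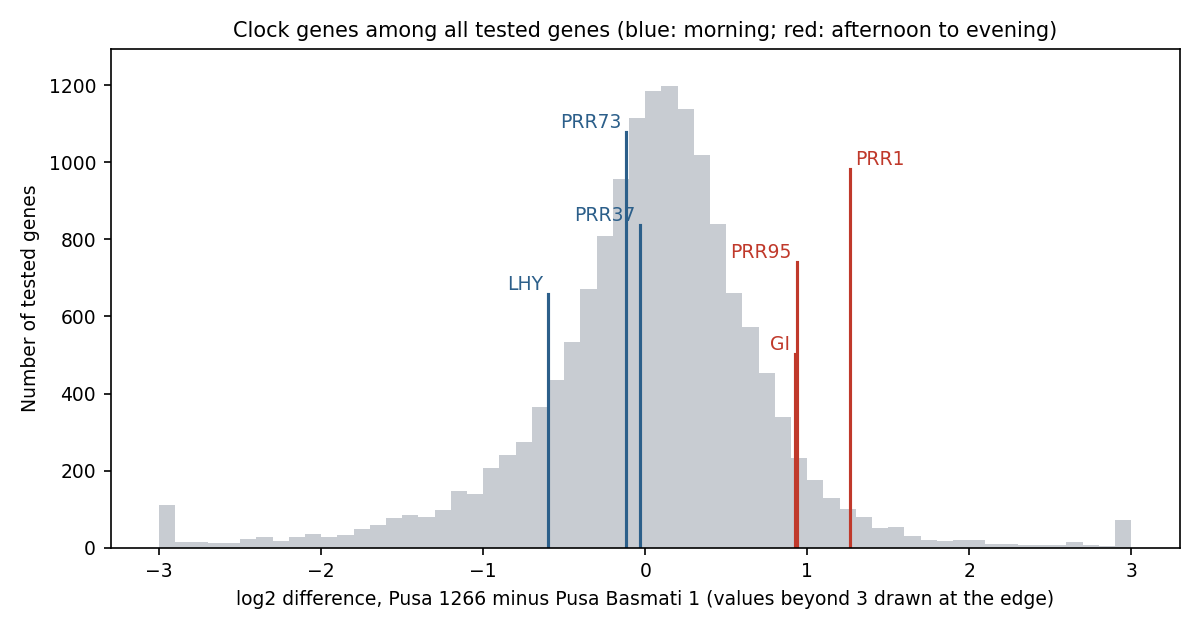
Number of tested genes (y axis) by log2 difference, Pusa 1266 minus Pusa Basmati 1, after quantile normalization (x axis, values beyond 3 drawn in the outermost bins). Vertical lines mark the clock genes, morning genes in blue and afternoon to evening genes in red, with heights that only separate the names. PRR1, PRR95 and GI stand on the right flank, LHY on the left, and PRR37 and PRR73 near the centre. GI and PRR95 fall below 0 with hybridization control scaling.

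Comparing the differences of 2 genes removes most of the scaling. The cultivar difference of PRR1 exceeded that of LHY by 1.87 on the log2 scale after quantile normalization and by 1.72 to 1.87 over the 5 scalings. For PRR95 the excess over LHY was 1.54 (1.48 to 1.54), and for GI it was 1.52 (1.45 to 1.52). Against S1 of PRR37 the excess was 1.30 for PRR1, 0.97 for PRR95 and 0.96 for GI. Against S2 of PRR37 it was 0.78, 0.45 and 0.44, the smallest of the comparisons. Against the brighter probe set of PRR73 it was 1.38, 1.05 and 1.04, and against the dimmer 2.04, 1.71 and 1.70.

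All 15 pairs of an afternoon to evening probe set and a morning probe set gave a value above 0 in all 5 scalings, from 0.44 to 2.07. In 15 of 15 pairs the ratio of the 2 normalized signals on the Pusa 1266 arrays did not overlap with that on the Pusa Basmati 1 arrays. This was common, since 9 of 10 pairs within the morning group and 2 of 3 within the afternoon to evening group did not overlap either. These pairs share probe sets and the same 4 arrays, so they are not 15 separate observations, and no test was made on them. Nor are the 5 scalings separate checks, since a shift of a whole array largely cancels in a pair. Within the afternoon to evening group the differences lay close together: GI and PRR95 were 0.01 apart, and PRR1 was 0.34 above GI and 0.33 above PRR95. Within the morning group, which holds 2 probe sets each of PRR37 and PRR73, they spread wider, with gaps between 0.08 and 1.26. Between the probe sets that represent LHY, PRR37 and PRR73 the gaps ran from 0.08 to 0.57. The ratio within an array shows that the probe sets changed unequally between the cultivars, and does not say which of the pair changed. It also did not overlap between the 2 probe sets of PRR37, 0.52 apart, and those of PRR73, 0.66 apart. The excess of GI and PRR95 over S2 of PRR37 (0.44 and 0.45) was smaller than these gaps within a gene.

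**Figure D5:**
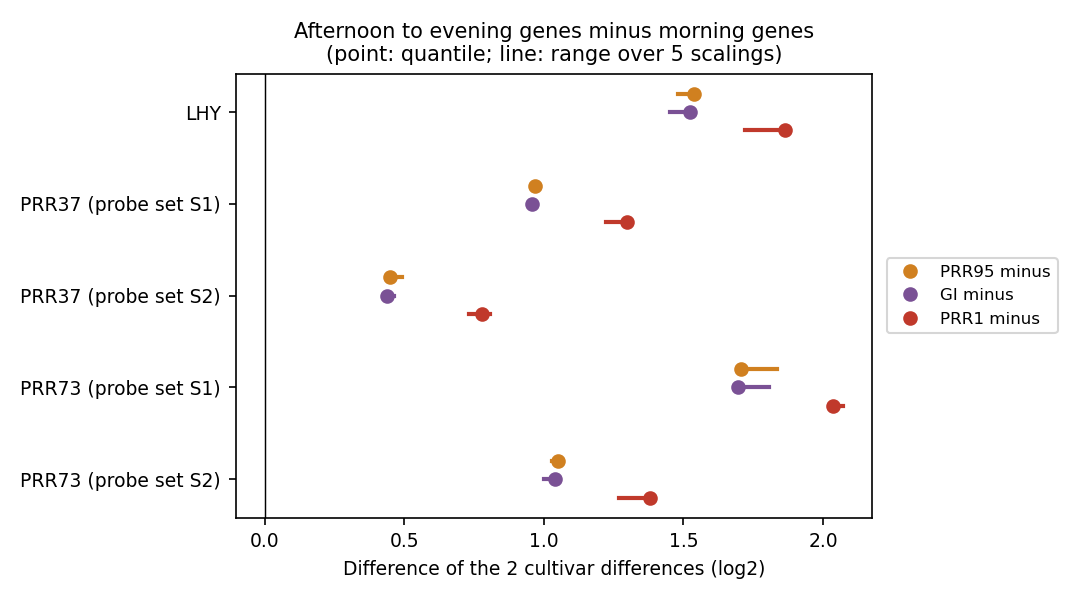
Cultivar difference of each afternoon to evening gene minus that of each morning probe set on the log2 scale (x axis), for the 5 morning probe sets (y axis). Points are values after quantile normalization and lines the range over 5 scalings, which largely cancel in a pair. All 15 points and lines lie above 0, highest for PRR1 and lowest against probe set S2 of PRR37.

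Other genes with a known or possible tie to the clock were taken from 3 lists of names. Their counts stand beside the 35.5% of all genes called higher and the 26.7% called lower, and with 3 to 6 tested genes a list they show nothing particular to a list. Of 43 names listed as further clock components or candidates for them, 7 were found, for 5 genes, of which 4 were tested. No role of HD16 or PCF1 in the rice clock is shown here. Of those 4, 3 were called higher and none lower in Pusa 1266, with a median of 0.59 that was −0.21 with the deposited scaling. HD16, a casein kinase known in rice to phosphorylate the flowering repressor Ghd7, had signals of 1232 and 1594 against 1047 and 1141 and rose by 1.06 ± 0.07 (0.35 with the deposited scaling). With hybridization control scaling it stood at 0.017 and was not called (adjusted p = 0.914). PCF1, a TCP transcription factor, rose by 0.88 ± 0.08, with 0.07 under the deposited scaling and −0.26 under hybridization control scaling. PRMT5, an arginine methyltransferase that affects clock period in Arabidopsis, rose by 0.31 ± 0.07 and turned to −0.49 with the deposited scaling. XCT, a clock-period gene in Arabidopsis, stood at −0.056 and did not pass. PCL1, the counterpart of the Arabidopsis night-time repressor LUX, had signals between 0.9 and 6.8 and was not tested.

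Of the 3 phytochrome genes matched, 1 was called higher and 1 lower. PHYC fell by 0.48 ± 0.07. PHYA rose by 0.35 ± 0.05 at its brighter probe set, which turned to −0.37 with the deposited scaling, while its other probe set was called lower at −0.53 ± 0.07. The list median was 0.09, and −0.69 with the deposited scaling, where 3 of 3 genes were below 0.

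Of the flowering genes that the clock acts on, 9 were matched and 6 tested, with 3 called higher, 1 lower and a median of 0.35 (−0.27 with the deposited scaling). MADS56, a floral repressor in long days, rose by 2.37 ± 0.12 and stayed above 0 in every setting run. EHD3, a PHD finger gene that promotes flowering, fell by 0.63 ± 0.07. Its signals were 170.2 and 196.5 against 498.4 and 560.4, without overlap. A dimmer probe set of EHD3 stood at 0.21 ± 0.15 and did not pass, and the mean over its probe sets was −0.37. DTH8, a subunit of the NF-Y factor and counted among the 3, stood at 0.76 ± 0.18 with signals of only 13.2 and 16.2 against 4.3 and 7.9. It exceeded the array median on the Pusa 1266 arrays alone, so it entered the test through the cultivar where it was high, and it was not tested once either of these arrays was left out. Without the first Pusa Basmati 1 replicate it did not pass (0.62, adjusted p = 0.0669). MADS50, a floral activator, passed at 0.27 ± 0.10 (adjusted p = 0.0444) and turned to −0.54 with the deposited scaling. Leaving out a replicate moved its adjusted p past the threshold in 3 of 4 cases, to 0.211 without the first Pusa Basmati 1 replicate. Hd1, on which GI acts in rice, stood at 0.42 with signals between 17.8 and 25.9 and did not pass, and Hd3a, the florigen gene, had signals of 15.2 or less and was not tested.

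Markers of other tissue and state were counted too, beside the 35.5% of all tested genes called higher and the 26.7% called lower. Of 4 green leaf genes matched, 3 had a probe set and both that were tested were called lower in Pusa 1266. CAB2R, of the light-harvesting complex, had signals of 784.7 and 781.7 against 2641.2 and 3091.3 and fell by 1.19 ± 0.06. RBCS, the small subunit of Rubisco, had signals of 31.4 and 23.3 against 139.0 and 165.1 and fell by 1.26 ± 0.17. A dimmer probe set of RBCS was called lower at −0.81 ± 0.14. Another stood at −0.13 ± 0.22 and did not pass (adjusted p over probe sets 0.638). RBCS1 had signals of 3.3 or less on all arrays. The summed signal of the probe sets that represent CAB2R and RBCS was 805.0 and 816.1 in Pusa 1266 against 2780.2 and 3256.4 in Pusa Basmati 1. Of 9 genes of later floral organs 3 were called higher, near the share of all genes, and none lower. Their median was 0.25, and −0.50 with the deposited scaling. Heat shock genes were matched by any name starting with HSP or HSF. Of the 42 tested 32 were called lower and 3 higher. The 32 include ARD1 (−2.32), which matched through another of its names. Of 11 tested JAZ genes, repressors of jasmonate signalling, 10 were called lower and 1 higher. The part of tissue make-up, of stress state and of RNA integrity in the clock gene differences was not tested. Clock transcripts also change with the time of day. With no harvest hour given, its part cannot be told apart from that of the cultivar and was not tested either.

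Genes with the pattern most like LHY and PRR1 were found by the distance between gene-centred normalized values over the 4 arrays. For LHY these were BGLU25 (a beta-glucosidase, distance 0.040), SUS1 (a sucrose synthase, 0.041) and ADK-A (an adenylate kinase, 0.047), with differences of −0.63, −0.63 and −0.59. Only genes with a symbol were named, and 16 genes in all lay closer to LHY than BGLU25. For PRR1 these were CML3 (a calmodulin-like protein, 0.043), ARGOS (an organ size gene, 0.094) and C3H3 (a zinc finger protein, 0.095), with differences of 1.26, 1.24 and 1.31. ARGOS, with signals of 28.5 and 28.4 against 9.7 and 8.0, was below the array median in Pusa Basmati 1 and passed the filter through Pusa 1266 alone. All the named genes were picked by the closeness of these same values, so none of their differences is support for the likeness. Within a distance of 0.2 there were 974 tested genes for LHY and 79 for PRR1.

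The tested genes next to each clock gene in the reference gene order did not share its direction throughout. With 35.5% of all genes called higher and 26.7% lower, such small counts show nothing particular to these neighbourhoods. Of the 10 tested genes nearest to LHY 7 were called higher and 1 lower, with a median of 0.69, while LHY fell. Of the 10 nearest to PRR73 3 were called higher and none lower. Of the 10 nearest to PRR1 5 were higher and 1 lower, of those nearest to PRR95 4 and 1, and of those nearest to GI 5 and 3. Near PRR37 2 of 9 were higher and 4 lower.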

How the data were processed

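Total RNA (8 ug per sample) had been biotin-labelled and hybridized to Affymetrix arrays, per the labels' protocols. The authors deposited a linear intensity for every probe set on each array. The submitters' processing notes name GCOS 1.2. How background and scaling were handled is not given in the sources used here. Precision is limited by the number of arrays.

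From these intensities log2(signal + 16) was quantile normalized without the 123 control probe sets. Of the other probe sets, 30029 exceeded their array's median on at least 2 arrays. They were tested in limma 3.58.1 (R 4.3.3), using lmFit and then eBayes with an intensity trend, with Benjamini-Hochberg adjustment over all probe sets or, for genes, over 15183 genes. The probe set of highest mean over the arrays stood for its gene. The limma script was tested on simulated data. With 2 arrays against 2, the smallest two-sided p of an exact permutation test is 0.333, so none was run.

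The array annotation gave 1 gene to 22436 probe sets, several to 95 and none to 34727. Gene names and chromosomes came from assembly ASM3414082v1, a Japonica rice, in which all 17905 gene IDs matched. Coordinates are left out, since no build is named for the array.

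Replicate numbers did not pair the samples (r = 0.02 between the replicate differences of the cultivars), and the fit has no block. The clock genes, lists and tests were chosen with earlier results of these data known. From the marker lists 3 genes were left out, a pair that matched through another gene's name and a cytoplasmic aldolase. Named were all clock genes with every probe set, up to 4 called genes per related list with the largest differences, and the 3 genes with a symbol most like LHY and PRR1. XCT, PCL1, Hd1, Hd3a and single markers were named after their values were seen. Alternatives changed scaling, pseudocount, filter, variance prior, probe set choice, replicates and pairing, and scaling to hybridization controls was added after the data were seen.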

Additional observations from a re-analysis of the deposited data

How the results depend on the processing

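Of the settings tried, only the scaling between arrays and the choice of probe set moved the counts of called clock genes. The 3 clock genes called higher became 1 with the deposited scaling and 0 with hybridization control scaling (added after seeing the data), where 435 of all genes were called higher in limma. The 1 called lower became 3 with the deposited scaling, median centring and hybridization control scaling, and 2 with the mean of all probe sets, which called 4 higher. The 7 related genes called higher and 2 lower became 3 and 8 as deposited, 3 and 4 after median centring, and 1 and 8 after hybridization control scaling. The 5384 of all genes called higher and 4057 lower became 711 and 10174, 1303 and 7887, and 435 and 12672 under these 3 scalings.

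Under the deposited scaling GI (0.14) and PRR95 (0.17) missed the threshold, and they turned to −0.19 and −0.17 with hybridization control scaling, where PRR1 did not pass (0.16). PRR37 passed at −0.81, −0.58 and −1.15 with the deposited, median and hybridization control scalings, turned to 0.23 with the mean of its probe sets, and turned to 0.082 without the first Pusa 1266 replicate. PRR73 passed at −0.87, −0.63 and −1.20 under those scalings and at −0.44 with the mean of its probe sets. Leaving out 1 replicate gave ranges of −0.15 to 0.082 for PRR37 and −0.17 to −0.06 for PRR73. For GI, PRR1, PRR95 and LHY it gave 0.84 to 1.03, 1.13 to 1.42, 0.91 to 0.98 and −0.63 to −0.58. In order of the deposited, median and hybridization control scalings, PRMT5 turned to −0.49, −0.25 and −0.82, PHYA to −0.37, −0.14 and −0.71, and MADS50 to −0.54, −0.30 and −0.84. PHYA also turned to −0.088 with the mean of its probe sets and −0.53 without shared-sequence probe sets, and PCF1 to −0.26 with hybridization control scaling. The cause of these changes was not tested beyond the shift of the median of all genes. With the replicate number as a block the counts were 3 and 1 for clock genes, and no call of a clock gene changed (PRR1 at 1.26, adjusted p = 4.59e-06). Signals under the added constant of 16, as in DTH8 and the second LHY probe set, limit what can be measured.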
